A study of Homo sapiens with 42 samples.

Results

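Sterol and fatty acid synthesis was followed through 36 genes, of 28266 symbols in the count table. They were chosen by function, but with earlier results of these data known. They comprise 5 regulators of the SREBP pathway, 18 genes of cholesterol synthesis and intracellular transport (the sterol arm), 11 genes of fatty acid synthesis, desaturation and elongation (the fatty acid arm) and 2 sterol efflux transporters. All 36 had reads enough to be tested in every fit.

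RNA sequencing of poly(A) transcripts was done on 42 libraries in 12 groups of IMR90, a strain of normal human lung fibroblasts. IMR90 ER:RAS cells (18 libraries) express RAS fused to the oestrogen receptor, which is active only when 4-hydroxytamoxifen (4OHT) binds it. They were given 100 nM 4OHT, which leads to oncogene-induced senescence (OIS), or DMSO. IMR90 cells without the fusion (24 libraries) were given 50 µg/ml bleomycin for 24 h, a DNA-damaging drug that also brings on senescence, or DMSO. After 7 days of culture, 1 µg/ml doxycycline switched on a control shRNA or 1 of the shRNAs numbered 1 and 2 against COPB2, a subunit of the coatomer (COPI) that coats vesicles returning from the Golgi to the endoplasmic reticulum. RNA was collected 72 h later, on day 10. All groups therefore carried an inducible shRNA and received doxycycline, and each group had 3 (ER:RAS) or 4 (IMR90) libraries. The senescence types differ in the cells, the agent and the presence of the transgene, so these cannot be told apart in a comparison of the 2 models. No cells without the fusion were given 4OHT. Within ER:RAS cells, effects of 4OHT itself and of active RAS therefore cannot be told apart, and OIS here names both together. The labels number the replicates without saying which cultures they came from, whereas the study's figure legends call replicates independent experiments, and p-values measure the spread between these libraries.

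Sterol regulatory element-binding proteins (SREBPs) are transcription factors made as membrane proteins of the endoplasmic reticulum. When membrane cholesterol is low, SCAP escorts them in COPII vesicles to the Golgi, where proteases release the active fragment, and when cholesterol is high the INSIG proteins hold SCAP and SREBP back. SREBF2 encodes the form mainly tied to cholesterol synthesis and SREBF1 the forms mainly tied to fatty acid synthesis, and INSIG1 is itself a target, so that its mRNA falls when sterols are plentiful. ABCA1 and ABCG1, which export sterols, answer instead to the oxysterol-sensing liver X receptors.

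Stretches of 150 bases directly before the transcription start are shown for 7 members, from RefSeq promoters on GRCh38.p14, because the synthesis genes are classically regulated through sites close to the start. They cover regulators that rose in OIS (INSIG1, SREBF2), members of the sterol arm with large changes (MSMO1, FDPS, HMGCS1) and members of the fatty acid arm for comparison (SCD, FADS1). Capitals mark exact matches, on either strand, to 3 letter patterns that were searched. These were TCACNCCAC, a core form of the sterol regulatory element, the CCAAT box that NF-Y binds (ATTGG on the other strand) and the E-box CACGTG. INSIG1 lies at chr7:155297728-155297877 (plus strand), SREBF2 at chr22:41832955-41833104 (plus), MSMO1 at chr4:165327519-165327668 (plus), FDPS at chr1:155308716-155308865 (plus), HMGCS1 at chr5:43313413-43313562 (minus), SCD at chr10:100347083-100347232 (plus) and FADS1 at chr11:61817004-61817153 (minus).
INSIG1: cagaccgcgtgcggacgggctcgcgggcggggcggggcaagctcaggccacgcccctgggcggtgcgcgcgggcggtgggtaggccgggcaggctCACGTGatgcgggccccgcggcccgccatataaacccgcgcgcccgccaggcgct
SREBF2: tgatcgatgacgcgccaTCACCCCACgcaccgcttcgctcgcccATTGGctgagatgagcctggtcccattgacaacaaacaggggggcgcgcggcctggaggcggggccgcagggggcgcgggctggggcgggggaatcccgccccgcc
MSMO1: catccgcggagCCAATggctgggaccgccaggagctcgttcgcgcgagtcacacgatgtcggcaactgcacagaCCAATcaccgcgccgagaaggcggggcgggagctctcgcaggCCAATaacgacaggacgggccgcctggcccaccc
FDPS: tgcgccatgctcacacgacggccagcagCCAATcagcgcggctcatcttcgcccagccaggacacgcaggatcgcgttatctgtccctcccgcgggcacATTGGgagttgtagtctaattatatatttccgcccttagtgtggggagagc
HMGCS1: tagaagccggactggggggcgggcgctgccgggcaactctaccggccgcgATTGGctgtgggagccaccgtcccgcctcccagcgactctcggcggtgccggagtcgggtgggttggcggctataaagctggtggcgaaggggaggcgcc
SCD: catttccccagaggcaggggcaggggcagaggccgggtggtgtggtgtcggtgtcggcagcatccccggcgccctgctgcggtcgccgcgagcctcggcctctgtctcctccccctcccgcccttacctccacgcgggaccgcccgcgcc
FADS1: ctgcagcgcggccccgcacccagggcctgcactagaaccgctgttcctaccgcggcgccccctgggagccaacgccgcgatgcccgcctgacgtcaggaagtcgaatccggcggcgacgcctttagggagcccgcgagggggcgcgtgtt

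The SREBF2 stretch held TCACNCCAC, at 133 bases before the start, together with 1 CCAAT box. MSMO1 held 3 CCAAT boxes, FDPS 2 and HMGCS1 1, and the SCD and FADS1 stretches held no match to any of the 3 patterns. Further upstream of the printed bases, SCD had CCAAT at -229 and -186 from the start. So did INSIG1 at -170, MSMO1 at -185, FDPS at -176 and HMGCS1 at -155, but not FADS1. In windows from 250 bases before to 50 bases after the start, found for 31 of the 36 members, CCAAT was present in 22 (71%), against 39.7% of 27305 genes. Of the sterol arm, 13 of 15 genes (86.7%) had it, and of the fatty acid arm 7 of 10 (70%). These genes had 20 and 18 windows, and a gene with more windows has more places for a match. The E-box was found in 6 members (19.4%, against 8.77% of all genes), and TCACNCCAC was found in SREBF2 alone of the 31 (3.23%, against 1.39% of all genes). Counted over windows, CCAAT was in 34.6%, CACGTG in 7.26% and TCACNCCAC in 1.13% of 35116. These are exact letter matches and say nothing of binding. Variant forms of the sterol regulatory element were not searched, so a promoter without TCACNCCAC may still hold one.

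Library totals ran from 13148194 to 23597310 counts, so 3 counts corresponded to 0.228 CPM (reads relative to library sizes that were scaled by TMM) in the smallest library and 0.127 CPM in the largest. No pair of libraries was identical. HRAS gave 47753 to 75170 counts in ER:RAS libraries, DMSO included, and 461 to 2656 in the others. MKI67, a proliferation marker, was at 2.55 to 12.1 CPM in the ER:RAS DMSO libraries, at or under 0.153 CPM with 4OHT, at 3.69 to 7.79 CPM in IMR90 DMSO libraries, and at 0.0657 to 1.87 CPM after bleomycin. COPB2 was at 267 to 620 CPM with the control shRNA and at 33.9 to 122 CPM with either COPB2 shRNA, so the knockdown was seen in every library. Of the 8 fibroblast markers examined all were detected in every library (COL1A1 at 936 CPM or more), and none of the 17 markers of epithelial, endothelial, immune and fat cells exceeded 10.2 CPM. In such bulk libraries, fewer cells of a type and less RNA per cell cannot be told apart.

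The members' replicate spread followed base composition. Over all genes with an annotated transcript (14678), the deviation of a library from its group mean had a Spearman correlation with transcript GC content of between -0.799 and 0.785, and with transcript length of between -0.562 and 0.574, depending on the library. The OIS control libraries were among those concerned: across the 36 members, the log2 difference between replicates 1 and 3 had a Spearman correlation of 0.852 with GC content and of -0.482 with length (a description across genes of 1 pair of libraries, which share composition and depth). PMVK was higher in replicate 1 by 2.47 on the log2 scale and MVD by 1.64, while ABCA1 differed by -3.07 and SC5D by -2.29. A correction for GC content and length within each library, chosen after seeing the data, lowered the within-group SD for 34 of the 36 members, and its median from 0.38 to 0.23. Replicate 1 of the OIS control group also had the lowest TMM factor of the series (0.61). The part of composition in the group differences below was not tested, but for the comparisons with the control shRNA values with the correction are given where it changed a call.

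**Figure D1:**
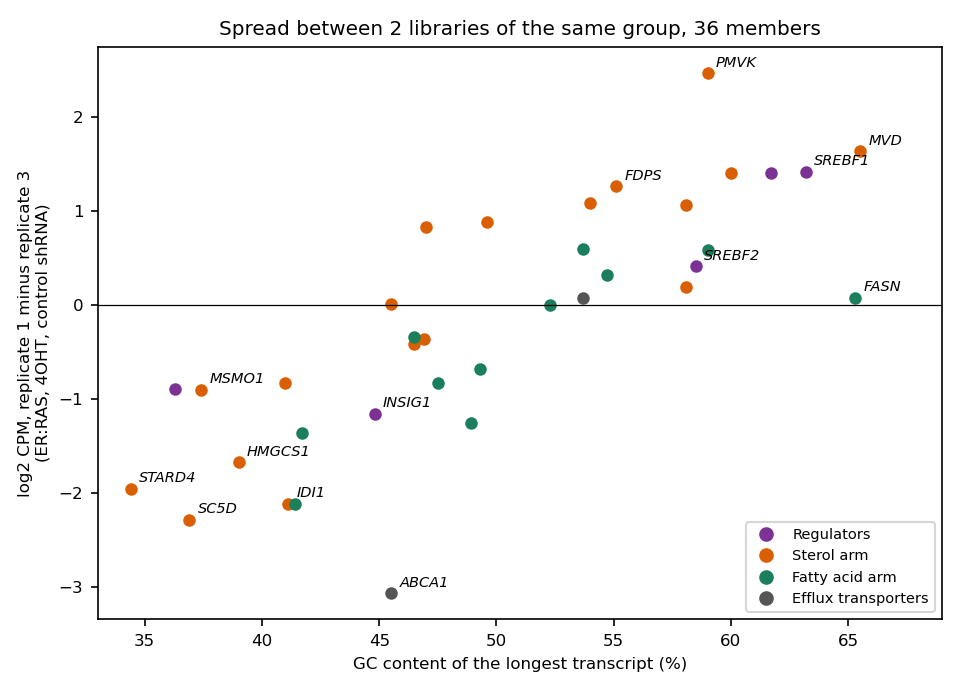
Difference between replicates 1 and 3 of the OIS control shRNA group for each of the 36 members (vertical axis, log2) against the GC content of its longest annotated transcript (horizontal axis, percent), coloured by arm. Points rise from ABCA1 at -3.07 to PMVK at 2.47, and GC-rich members tended to be higher in replicate 1 and GC-poor members in replicate 3.

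In OIS most of the sterol arm rose. With the control shRNA, 24 of the 36 members were higher in 4OHT than in DMSO cells and none lower at an adjusted p under 0.05, against 15.5% of all 14297 genes tested called higher and 20.2% called lower. The median log2 fold change of the members was 1.84, beside -0.079 over all genes tested. By arm, 15 of 18 sterol genes rose (median 2.27), 6 of 11 fatty acid genes (median 0.85), 2 of 5 regulators and 1 of 2 efflux transporters. With the composition correction 16 of the 18 sterol genes and all 11 fatty acid genes passed as higher, so the counts of the arms depend on it. That fit called 55.4% of all genes in either direction, against 35.7% without the correction.

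Of the regulators, INSIG1, the sterol-regulated anchor of SCAP, was at 11.2, 11 and 19.6 CPM in the 3 DMSO libraries and at 137, 145 and 305 CPM in the 3 4OHT libraries. SREBF2 was at 162, 237 and 130.5 CPM in DMSO and 556, 418 and 418 CPM in 4OHT. For both genes all 4OHT libraries lay above all DMSO libraries. The log2 fold change was 3.72 ± 0.51 (SE; adjusted p = 3.74e-05) for INSIG1, a 13.2-fold rise, and 1.30 ± 0.20 (adjusted p = 0.000127) for SREBF2. SREBF1 was at 49.98, 73.7 and 49.5 CPM in DMSO and at 93.2, 52.8 and 34.7 CPM in 4OHT, where replicate 1 was the highest and replicate 3 the lowest of the 6, a log2 fold change of -0.048 ± 0.33, adjusted p = 0.935. The escort SCAP was at 146, 224 and 111 CPM in DMSO and 152, 85.4 and 57.3 CPM in 4OHT (-0.81 ± 0.36, adjusted p = 0.096), and INSIG2, the isoform whose transcription depends less on sterols, was at 14.3, 5.89 and 20.9 CPM in DMSO and 17, 20.6 and 31.7 CPM in 4OHT (0.65 ± 0.63, adjusted p = 0.473). The DMSO and 4OHT libraries overlapped for these 3 genes. Corrected for GC content and length, SCAP passed as lower (-0.82) and INSIG2 as higher (0.89), in a fit that called 55.4% of all genes in either direction.

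The early sterol pathway builds isoprenoid units from acetyl-CoA. ACAT2, the cytosolic thiolase, was at 24.4, 24.1 and 30.9 CPM in DMSO and 152, 123 and 150.3 CPM in 4OHT (2.31 ± 0.21, adjusted p = 4.98e-07). HMGCS1, which makes HMG-CoA, was at 11.1, 5.96 and 23.1 CPM in DMSO and 54.4, 76.5 and 174 CPM in 4OHT (2.82 ± 0.71, adjusted p = 0.00573). For both the groups were apart, although the highest HMGCS1 library of each group was more than 3 times the lowest. Of the 3 enzymes that carry mevalonate to isopentenyl pyrophosphate, MVK was at 13.8, 19.3 and 15.4 CPM in DMSO and 116, 59.7 and 43.5 CPM in 4OHT (2.06 ± 0.31, adjusted p = 9.73e-05), and MVD at 33.6, 44.5 and 42.6 CPM in DMSO and 357, 143 and 115 CPM in 4OHT (2.23 ± 0.35, adjusted p = 0.000137). PMVK, which acts between them, was at 36, 55.3 and 41.4 CPM in DMSO and 93.2, 31.9 and 16.7 CPM in 4OHT (-0.029 ± 0.51, adjusted p = 0.977), with the 4OHT libraries on either side of all DMSO libraries. IDI1, the isopentenyl pyrophosphate isomerase, was at 26.8, 12.3 and 51.5 CPM in DMSO and 71.6, 189 and 311 CPM in 4OHT (2.55 ± 0.80, adjusted p = 0.0206). Its call was lost without any 1 of 3 libraries (4OHT replicate 3, DMSO replicates 1 or 2; log2 fold changes 2.02, 2.51 and 2.22).

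FDPS, farnesyl pyrophosphate synthase, was at 97.6, 140 and 105 CPM in DMSO and 1640, 945 and 681 CPM in 4OHT (3.14 ± 0.30, adjusted p = 1.2e-06). FDFT1, squalene synthase and the first step committed to sterols, was at 126, 179.9 and 129.5 CPM in DMSO and 1288, 794 and 724 CPM in 4OHT (2.59 ± 0.24, adjusted p = 8.28e-07). The lowest 4OHT library was several times above the highest DMSO library for either gene. SQLE, squalene monooxygenase, was at 34.6, 30.8 and 47.1 CPM in DMSO and 160, 128 and 214 CPM in 4OHT (2.06 ± 0.34, adjusted p = 0.00019), again without overlap. The exception in this stretch was LSS, the lanosterol cyclase that follows SQLE, at 162, 233 and 128 CPM in DMSO and 224, 147 and 107 CPM in 4OHT (-0.23 ± 0.30, adjusted p = 0.611), where the groups overlapped.

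Among the genes that turn lanosterol into cholesterol, MSMO1, the C4-methyl oxidase, had the largest change of the sterol arm, from 24.8, 26.6 and 42.4 CPM in DMSO to 364, 419.7 and 679 CPM in 4OHT (3.87 ± 0.45, adjusted p = 7.93e-06). CYP51A1, lanosterol demethylase, was at 25.9, 19.1 and 42 CPM in DMSO and 116, 125 and 207 CPM in 4OHT (2.26 ± 0.45, adjusted p = 0.00102). DHCR7, which makes cholesterol from 7-dehydrocholesterol, was at 37.4, 56.8 and 30.1 CPM in DMSO and 256, 241 and 224 CPM in 4OHT (2.45 ± 0.21, adjusted p = 3.2e-07). None of these groups overlapped, and DHCR7 was even among the 4OHT replicates while MSMO1 and CYP51A1 were highest in replicate 3. NSDHL, the C4 decarboxylase, was at 27.2, 39.2 and 22.9 CPM in DMSO and 197, 136 and 107 CPM in 4OHT, and HSD17B7, the 3-keto reductase, at 4.59, 6.84 and 5.53 CPM in DMSO and 16.3, 18.2 and 21.1 CPM in 4OHT. EBP, the sterol isomerase, was at 15.5, 19.8 and 13.4 CPM in DMSO and 129, 64.8 and 60.7 CPM in 4OHT. These 3 also had no overlap, with log2 fold changes of 2.20 ± 0.26, 1.63 ± 0.22 and 2.28 ± 0.30 (adjusted p = 1.07e-05, 3.92e-05 and 2.4e-05).

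The lathosterol desaturase and a carrier varied more between replicates. SC5D, the lathosterol desaturase, was at 25.2, 11.3 and 40.8 CPM in DMSO and 35.1, 86.9 and 172 CPM in 4OHT, with overlap (1.83 ± 0.79, adjusted p = 0.0844), and passed with the composition correction (1.87). STARD4, which carries cholesterol between membranes, was at 10.6, 4.31 and 23.2 CPM in DMSO and 28.2, 67 and 109.6 CPM in 4OHT (2.32 ± 0.84, adjusted p = 0.0424), a call lost without any 1 of 4 libraries (4OHT replicates 2 or 3, DMSO replicates 1 or 2; 1.82 to 2.40).

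In the fatty acid arm FASN, ACLY, LPIN1 and the desaturases SCD, FADS1 and FADS2 rose. FASN, fatty acid synthase, was at 63.6, 97.9 and 46.9 CPM in DMSO and 412, 445 and 389.9 CPM in 4OHT (2.50 ± 0.30, adjusted p = 1.02e-05). ACLY, which supplies cytosolic acetyl-CoA from citrate, was at 235, 345 and 181 CPM in DMSO and 758, 801 and 758 CPM in 4OHT (1.52 ± 0.19, adjusted p = 1.36e-05). The 4OHT replicates of these 2 genes were close together and well above DMSO. SCD, the stearoyl-CoA desaturase, was at 112, 128 and 112 CPM in DMSO and 426, 386 and 539.9 CPM in 4OHT (1.85 ± 0.23, adjusted p = 1.55e-05), and FADS1, the delta-5 desaturase, at 45.6, 56.8 and 49.99 CPM in DMSO and 138, 197 and 222 CPM in 4OHT (1.78 ± 0.27, adjusted p = 0.000103). Groups did not overlap for either. FADS2, the delta-6 desaturase (0.71 ± 0.21, adjusted p = 0.0151), and LPIN1, a phosphatidate phosphatase, also rose but by less. LPIN1 was at 63.6, 51.1 and 61 CPM in DMSO and 83.8, 104 and 149.6 CPM in 4OHT (0.85 ± 0.28, adjusted p = 0.0276). Each call of these 2 was lost without any 1 of several libraries: FADS2 without 4OHT replicate 1 (0.61) or DMSO replicates 1 (0.62) or 3 (0.68), LPIN1 without 4OHT replicate 3 (0.61) or DMSO replicate 2 (0.79).

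The carboxylases that commit acetyl-CoA to fatty acids did not pass. ACACA, the cytosolic form, was at 56.5, 56.2 and 36.7 CPM in DMSO and 43.5, 55.1 and 104 CPM in 4OHT (0.37 ± 0.35, adjusted p = 0.452), and ACACB, the mitochondrial form, at 10.2, 12 and 6.3 CPM in DMSO and 11.2, 9.52 and 8.93 CPM in 4OHT (-0.037 ± 0.22, adjusted p = 0.923). ACSS2, which makes acetyl-CoA from acetate, had 0.60 ± 0.28, adjusted p = 0.115, and the elongases ELOVL5 and ELOVL6 had 0.70 ± 0.43, adjusted p = 0.227, and 1.61 ± 0.73, adjusted p = 0.101. All 5 passed as higher with the composition correction (ACACA 0.75, ACACB 0.51, ACSS2 0.73, ELOVL5 0.85, ELOVL6 1.83). The corrected fit called 32 of 36 members, with SCAP as lower, and 55.4% of all genes in either direction.

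Of the exporters, ABCG1 had the largest change of all members, from 1.27, 1.52 and 0.77 CPM in DMSO to 18.9, 19.2 and 17.9 CPM in 4OHT (3.88 ± 0.33, adjusted p = 2.86e-07), with close 4OHT replicates. ABCA1, which loads lipids onto apolipoproteins, was at 33.4, 18.1 and 16.9 CPM in DMSO and spread over 5.6, 23.1 and 47.8 CPM in 4OHT, both below and above DMSO (0.10 ± 0.63, adjusted p = 0.931).

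After bleomycin the same arm led with smaller changes. In IMR90 cells with the control shRNA, 19 members rose and 1 fell, against 15.4% of 14783 genes called higher and 15.8% called lower, and the median log2 fold change of the members was 0.79, beside -0.014 over all genes tested. The sterol arm had 13 of 18 genes higher (median 0.97). The fatty acid arm had 4 of 11 higher and 1 lower (median 0.35), and 1 regulator and 1 exporter rose. The 4 DMSO libraries were not alike: replicate 1 was the highest for SREBF2, SCAP, FDPS, FDFT1 and LSS. Without it 22 members were called, in a fit whose share of all genes called is not given.

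INSIG1 was at 17.6, 19.9, 17.9 and 14.3 CPM in the 4 DMSO libraries and at 38.5, 29.4, 45 and 23.9 CPM in the 4 bleomycin libraries, without overlap (0.94 ± 0.20, adjusted p = 0.00083). SREBF2 was at 291, 173, 159 and 166 CPM in DMSO and 298, 268, 245 and 226 CPM after bleomycin (0.37 ± 0.20, adjusted p = 0.169), and DMSO replicate 1 lay among the bleomycin libraries. SREBF1 was at 70.9, 41.6, 36.3 and 40.8 CPM in DMSO and 70.01, 74.2, 49.2 and 82.7 CPM after bleomycin (0.52 ± 0.26, adjusted p = 0.133), and SCAP was at 184, 112, 104 and 113 CPM in DMSO and 141, 148, 87.3 and 128 CPM after bleomycin (-0.047 ± 0.23, adjusted p = 0.907). INSIG2 was at 10.5, 18.5, 23.3 and 17.1 CPM in DMSO and 15.4, 9.81, 26.8 and 21.3 CPM after bleomycin (0.035 ± 0.32, adjusted p = 0.952). The groups overlapped for all 4 of the regulators other than INSIG1. With the composition correction SREBF1 (0.67) and SREBF2 (0.52) passed, in a fit that called 46.9% of all genes in either direction.

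MSMO1 was again the leading gene of the sterol arm, at 27, 26.9, 38.4 and 22.6 CPM in DMSO and 119.9, 73.3, 167 and 55.5 CPM after bleomycin (1.82 ± 0.30, adjusted p = 9.04e-05). DHCR7 was at 61.7, 28.3, 24.3 and 36.8 CPM in DMSO and 123, 115, 102 and 70.8 CPM after bleomycin (1.42 ± 0.26, adjusted p = 0.000224), and CYP51A1 at 26.7, 36.6, 47.5 and 29.4 CPM in DMSO and 92.2, 64.8, 126 and 68.9 CPM after bleomycin (1.29 ± 0.24, adjusted p = 0.000324). For these 3 every bleomycin library was above every DMSO library. IDI1 was at 17.8, 28.4, 41.1 and 26.2 CPM in DMSO and 85.9, 36.4, 136 and 70.01 CPM after bleomycin (1.49 ± 0.36, adjusted p = 0.00314), where bleomycin replicate 2 lay within the DMSO range.

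The other called members of the arm had smaller changes. ACAT2 was at 21, 16, 19.7 and 16.3 CPM in DMSO and 41.4, 31.5, 55 and 24.8 CPM after bleomycin (1.03 ± 0.23, adjusted p = 0.00156), and FDPS at 113, 68.1, 71.6 and 67.6 CPM in DMSO and 197, 173, 181 and 104 CPM after bleomycin (1.01 ± 0.21, adjusted p = 0.000684). FDFT1 was at 168, 108, 109.6 and 108 CPM in DMSO and 240.3, 197, 210 and 131 CPM after bleomycin (0.63 ± 0.19, adjusted p = 0.0166). ACAT2 was free of overlap, whereas for FDPS and FDFT1 DMSO replicate 1 exceeded the lowest bleomycin library. SQLE was at 35.5, 34.8, 43.2 and 34.6 CPM in DMSO and 77.2, 67.4, 104 and 57.8 CPM after bleomycin (1.02 ± 0.17, adjusted p = 0.000121), and MVD at 37.9, 25.3, 29.8 and 26.9 CPM in DMSO and 60.5, 55.9, 52.4 and 32.4 CPM after bleomycin (0.72 ± 0.24, adjusted p = 0.0229), the latter with overlap. NSDHL was at 28.3, 16.7, 15.1 and 18.4 CPM in DMSO and 50.5, 49.8, 46.8 and 32.1 CPM after bleomycin (1.16 ± 0.21, adjusted p = 0.000161), and HSD17B7 at 4.73, 4.54, 3.47 and 4.42 CPM in DMSO and 8.67, 6.54, 8.57 and 7.57 CPM after bleomycin (0.84 ± 0.18, adjusted p = 0.000874). Both of these late enzymes had all bleomycin libraries above DMSO.

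The remaining calls were close to the threshold. SC5D (0.93 ± 0.34, adjusted p = 0.0386) and STARD4 (1.09 ± 0.41, adjusted p = 0.0456) passed narrowly. The calls of MVD, FDFT1, SC5D and STARD4 were each lost without any 1 of several libraries, among them bleomycin replicate 1, without which they were 0.63, 0.52, 0.91 and 1.13. HMGCS1 was at 12, 21.6, 27 and 20.9 CPM in DMSO and 34.5, 18.2, 61.5 and 34 CPM after bleomycin and did not pass (0.82 ± 0.37, adjusted p = 0.101), and neither did MVK, at 16.3, 11, 9.39 and 10.6 CPM in DMSO and 22.6, 20.8, 17.3 and 11.3 CPM after bleomycin (0.59 ± 0.25). EBP was at 14.8, 10, 10.9 and 10.6 CPM in DMSO and 19.4, 16.4, 15.9 and 11.5 CPM after bleomycin (0.42 ± 0.21), and did not pass, nor did PMVK (-0.032 ± 0.26) or LSS (-0.13 ± 0.20). Of these, HMGCS1 (0.89), MVK (0.65) and EBP (0.36) passed with the composition correction. It called 27 members in all and 46.9% of all genes in either direction, against 31.2% of all genes without it.

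In the fatty acid arm FADS1 had the largest rise, from 76.6, 55.2, 51 and 59.8 CPM in DMSO to 153, 119, 137 and 152 CPM after bleomycin (1.18 ± 0.25, adjusted p = 0.000787). FASN was at 117, 78.2, 67.6 and 64.5 CPM in DMSO and 175, 155, 143 and 129 CPM after bleomycin (0.85 ± 0.25, adjusted p = 0.0111), ACLY at 309.9, 222, 203 and 227 CPM in DMSO and 488, 500, 474 and 357 CPM after bleomycin (0.89 ± 0.18, adjusted p = 0.000602), and SCD at 176, 128, 111 and 120.5 CPM in DMSO and 264, 239, 235 and 192 CPM after bleomycin (0.77 ± 0.19, adjusted p = 0.00331). These 4 did not overlap between groups. The single member that fell was ACACB, the carboxylase whose product restrains fatty acid oxidation at mitochondria, at 10.3, 11, 8.56 and 11.5 CPM in DMSO and 5.55, 6.31, 3.91 and 6.84 CPM after bleomycin, with all 4 bleomycin libraries lowest (-0.90 ± 0.24, adjusted p = 0.00676). FADS2 (0.35 ± 0.21), ELOVL6 (0.95 ± 0.39), ELOVL5 (0.17 ± 0.16), ACSS2 (0.11 ± 0.24) and ACACA (-0.25 ± 0.21) did not pass. Nor did LPIN1, at 74.3, 89.3, 80.3 and 78.2 CPM in DMSO and 85.1, 82.5, 95.2 and 58.5 CPM after bleomycin (-0.037 ± 0.19). The correction added FADS2 (0.43) and ELOVL6 (1.00). ABCG1 was at 0.718, 0.505, 0.343 and 0.737 CPM in DMSO (12, 11, 7 and 14 counts). After bleomycin it was at 3.78, 3.27, 2.42 and 5.76 CPM (a 6.49-fold rise, SE of the log2 value 0.44, adjusted p = 6.74e-05). ABCA1 was at 41, 76, 65.6 and 64.8 CPM in DMSO and 46.5, 33.7, 52.6 and 94.3 CPM after bleomycin (-0.16 ± 0.34, adjusted p = 0.775).

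**Figure D2:**
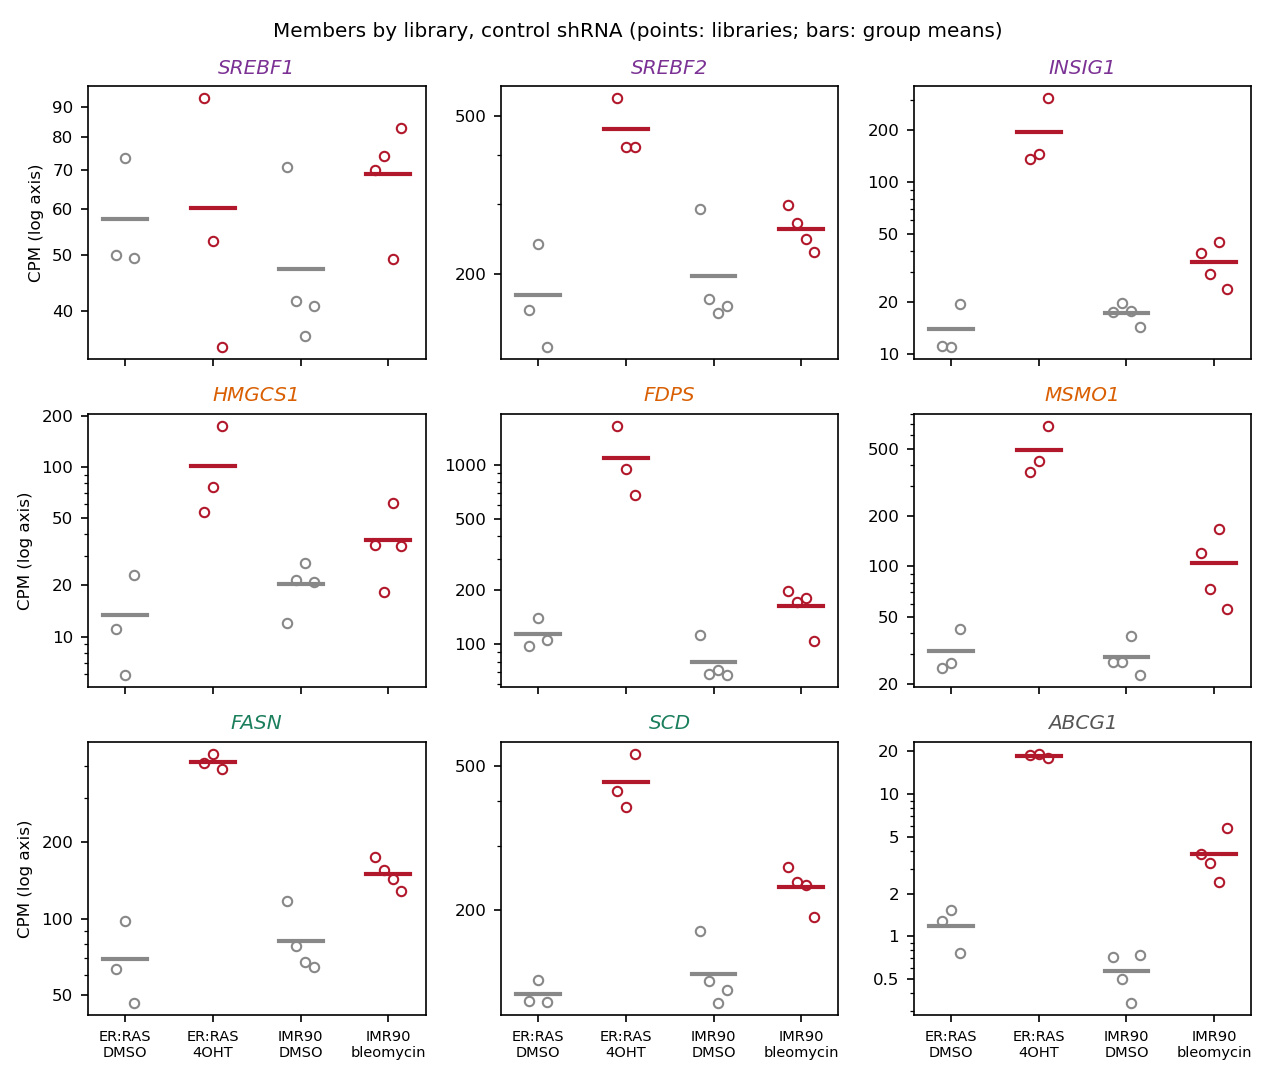
Level of 9 members in every control shRNA library (vertical axis, CPM on a log scale), one panel a gene, with DMSO and senescent groups of both models side by side. INSIG1 ran up to 305 CPM in the 4OHT libraries and stayed under 20 CPM in all 7 DMSO libraries.

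The mean rise of the sterol arm exceeded that of the fatty acid arm in each senescent library. Each arm was summarised in each library as the mean log2 difference of its genes from the DMSO control shRNA group of the same cells. In the 3 OIS control libraries the sterol arm was at 2.25, 2.07 and 2.24 (2.19 ± 0.10, SD, n = 3) and the fatty acid arm at 0.98, 1.20 and 1.44 (1.21 ± 0.23). The sterol arm exceeded the fatty acid arm in each, by 1.27, 0.87 and 0.80 (0.98 ± 0.25), while in the 3 DMSO libraries this difference, 0 on average by construction, had an SD of 0.33. After bleomycin the sterol arm was at 0.90 ± 0.32 (n = 4), the fatty acid arm at 0.40 ± 0.08, and the difference 0.50 ± 0.26, between 0.27 and 0.80 in every library, against an SD of 0.14 in DMSO. No test is given for these means, since the genes were chosen with results of these data known. The difference in OIS was 0.83 without 4OHT replicate 1, and 1.26 with the median over genes in place of the mean. It is not given with the composition correction, under which 16 of 18 sterol genes and all 11 fatty acid genes passed in OIS. That fit called 55.4% of all genes. How far the difference depends on composition was not tested.

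**Figure D3:**
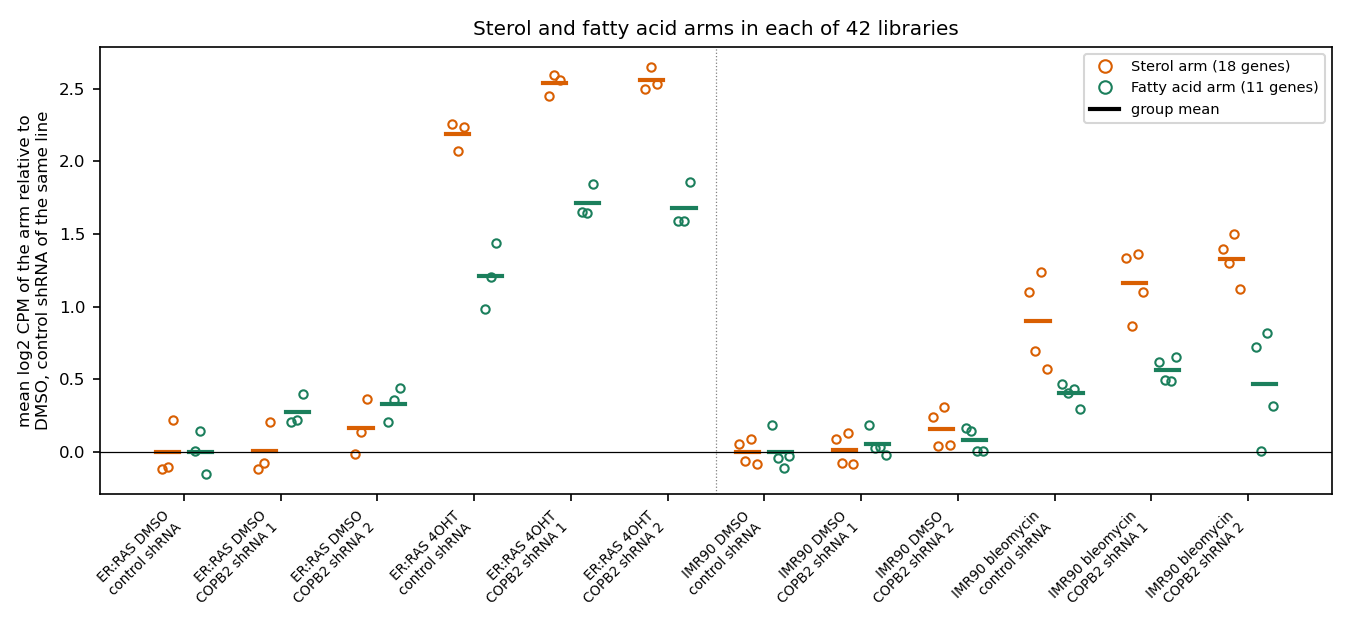
Mean log2 difference from the DMSO control shRNA group for the 18 sterol genes and the 11 fatty acid genes in each of the 42 libraries (points), by group; 0 is the mean of the DMSO control libraries of the same cells. The sterol points lie above the fatty acid points in each of the 9 libraries of the 4OHT groups and the 12 of the bleomycin groups.

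The log2 fold change in OIS was higher than that after bleomycin for 18 of the 36 members. The difference was tested as an interaction, and these 18 passed, each with the higher value in OIS, against 8.14% of 15299 genes called in that direction and 12.1% in the other. The median difference over members was 1.02, beside -0.028 over all genes. The 18 were 12 sterol genes, 4 fatty acid genes, INSIG1 and SREBF2. INSIG1 had the largest (2.84 ± 0.44, adjusted p = 1.02e-05), followed by FDPS (2.22 ± 0.38, 4.23e-05), MSMO1 (2.11 ± 0.49, 0.0018), HMGCS1 (2.06 ± 0.72, 0.039) and FDFT1 (2.03 ± 0.33, 2.12e-05). In the fatty acid arm it passed for FASN (1.70 ± 0.39), SCD (1.14 ± 0.27), LPIN1 (0.95 ± 0.30) and ACACB (0.92 ± 0.33, from a fall after bleomycin and -0.037 in OIS). FADS1 (0.66 ± 0.34, adjusted p = 0.192), ACLY (0.69 ± 0.27, adjusted p = 0.0694), CYP51A1 (1.04 ± 0.45, adjusted p = 0.105), IDI1 (1.12 ± 0.77, adjusted p = 0.35) and ABCG1 (1.25 ± 0.56, adjusted p = 0.114) rose in both models without a difference that passed. Only 12 members passed without 4OHT replicate 1, the library with the lowest TMM factor, in a fit whose share of all genes called is not given. With the composition correction 28 passed, 27 of them higher in OIS, where the fit called 36.2% of all genes in either direction. Those gained were CYP51A1 (1.24), SC5D (0.92), IDI1 and STARD4 of the sterol arm, ACLY (0.90), ELOVL6 (0.84), ELOVL5 (0.70) and ACSS2 (0.65) of the fatty acid arm, INSIG2 (0.88), and SCAP, whose difference was -0.82.

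Most members rose on senescence with COPB2 knocked down as well. In OIS, 26 members were higher and 1 lower with each COPB2 shRNA (medians 2.09 and 2.03, beside -0.12 and -0.086 over all genes), against 15.4% of genes called higher and 21.5% lower with shRNA 1, and 14.9% and 22% with shRNA 2. SCAP was the member that fell (-1.18 ± 0.36, adjusted p = 0.0184, and -1.14 ± 0.36, adjusted p = 0.0218). MSMO1 rose by 4.18 and 3.82, INSIG1 by 4.32 and 3.74, HMGCS1 by 3.58 and 3.49, and FASN by 2.98 and 2.81 on the log2 scale. In these 2 comparisons libraries of the same replicate number deviated together, and a replicate block added INSIG2 and SC5D with both shRNAs, ELOVL6 with shRNA 1 and ELOVL5 with shRNA 2, for 30 members each, in fits that called 53.2% and 53.1% of all genes in either direction. After bleomycin 24 and 23 members rose and ACACB fell (-0.94 and -1.21; medians 0.99 and 0.99, beside 0.014 and 0.012 over all genes), against 17.4% called higher and 17.8% lower with shRNA 1, and 21.7% and 18.3% with shRNA 2. SREBF1 passed here with either shRNA (0.66 ± 0.26, adjusted p = 0.0482, and 1.01 ± 0.26, adjusted p = 0.00349). The sterol arm averaged 2.54 and 2.56 in OIS and 1.17 and 1.33 after bleomycin, the fatty acid arm 1.71 and 1.68, and 0.56 and 0.47. The last of these means covers a wide spread (SD 0.37), from 0.0088 in replicate 2 to 0.82 in replicate 3. Each comparison on senescence has DMSO libraries of its own shRNA, whereas the arm means are all set against the DMSO control shRNA group.

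Knockdown itself was compared with the control shRNA within each of the 4 conditions, and without a replicate block no member passed with either shRNA. In IMR90 cells same-numbered libraries deviated together, and a block, given below, changed the result after bleomycin with shRNA 2. In the edgeR quasi-likelihood test, 0 of 36 members passed in the 8 comparisons, where the share of all genes called was 0.00699% with each shRNA in ER:RAS DMSO cells, 0.14% and 0.224% in OIS, 0.00676% with each in IMR90 DMSO cells, and 0.00676% and 0.0744% after bleomycin. Members with an unadjusted p under 0.05 numbered 0 and 2 in ER:RAS DMSO cells (0.811% and 0.93% of genes), 7 and 6 in OIS (3.23% and 4.48%), 1 and 2 in IMR90 DMSO cells (1.12% with each) and 3 and 12 after bleomycin (1.41% and 6.74%). The difference of the knockdown between senescent and DMSO cells also passed for none, in fits that called 0% of genes, and at an unadjusted p under 0.05 for 1 and 0 members in ER:RAS cells (1.36% and 1.84%) and 1 and 1 in IMR90 cells (0.819% and 1.93%). DESeq2's Wald test called 1 member, INSIG1 after bleomycin with shRNA 2.

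Most estimates lay above 0, in DMSO cells as well as in senescent cells. With shRNAs 1 and 2, 32 and 32 of 36 were positive in OIS (medians 0.31 and 0.34, beside -0.067 and -0.079 over all genes) and 31 and 31 after bleomycin (0.24 and 0.37, beside 0.011 and 0.0093). In DMSO cells 26 and 28 were positive in ER:RAS cells (0.092 and 0.14, beside 0 and -0.0047) and 21 and 23 in IMR90 cells (0.032 and 0.097, beside -0.0085 and -0.009). The 2 shRNAs share the control libraries in each condition. HMGCS1 was at 54.4, 76.5 and 174 CPM in OIS with the control shRNA, at 159, 166 and 315 CPM with shRNA 1 and at 168, 157 and 284 CPM with shRNA 2. Replicate 3 was the highest in each of these groups, and the groups overlapped. The log2 difference was 1.05 ± 0.67, adjusted p = 1, and 0.98 ± 0.67, adjusted p = 1. With the composition correction it was 1.03 ± 0.18 (adjusted p = 0.0185) and 0.97 ± 0.18 (0.0146), the only member called with either shRNA, in fits that called 0.646% and 1.4% of all genes. FASN, at 412, 445 and 389.9 CPM with the control shRNA, was at 578, 832 and 712 CPM with shRNA 1 and 513, 912 and 728 CPM with shRNA 2, all 6 above the controls (0.76 ± 0.28, adjusted p = 1, and 0.77 ± 0.28, adjusted p = 0.763). INSIG1 in the same cells was at 137, 145 and 305 CPM with the control, 277, 244 and 414 CPM with shRNA 1 and 274, 259 and 415 CPM with shRNA 2, overlapping (0.65 ± 0.45, adjusted p = 1, and 0.67 ± 0.45, adjusted p = 1).

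After bleomycin, where all 4 same-numbered pairs deviated together, a replicate block changed the result with shRNA 2. INSIG1 was at 38.5, 29.4, 45 and 23.9 CPM with the control shRNA, 55.4, 37.2, 54.9 and 55 CPM with shRNA 1 and 62.1, 43.5, 75.6 and 51.9 CPM with shRNA 2. SQLE was at 77.2, 67.4, 104 and 57.8 CPM, 104, 88.5, 122 and 104 CPM and 111, 94, 149.9 and 97.2 CPM in the same order. For both genes each shRNA 2 library exceeded the control library of its number, while the groups overlapped. Without the block the difference with shRNA 2 was 0.78 ± 0.19, adjusted p = 0.28 for INSIG1, and 0.57 ± 0.17, adjusted p = 0.516 for SQLE. With it they were 0.78 ± 0.16 (adjusted p = 0.0474) and 0.57 ± 0.10 (0.0199), the 2 members called, where 0.189% of all genes were. Block and composition correction together called 7 members, all higher (INSIG1, HMGCS1, MVD, SQLE, FASN, SCD and ELOVL5), where 1.22% of genes were. With shRNA 1 the block called none.

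Genes of neighbouring pathways were called in both directions, by the same fits. Of 20 further genes of cholesterol uptake, trafficking and sensing, with some of synthesis among them, 4 rose and 8 fell in OIS. Of all genes tested there, 15.5% were called higher and 20.2% lower. After bleomycin 5 rose and 4 fell, where 15.4% of all genes were called higher and 15.8% lower. Some of these counts lie near those shares, and nothing is read from them about the pathway. The synthesis genes of this list, which the sterol arm leaves out, did not move together in OIS. LBR, a sterol reductase, fell (-1.59 ± 0.48, adjusted p = 0.0166), and the related TM7SF2 did not pass (0.042 ± 0.33, adjusted p = 0.943). ERG28 rose (0.68 ± 0.19, adjusted p = 0.0119). LRP8, a lipoprotein receptor, rose by 3.40 ± 0.39 in OIS and 1.63 ± 0.24 after bleomycin on the log2 scale (adjusted p = 7.65e-06 and 2.76e-05), and NPC1, the lysosomal cholesterol exporter, by 2.17 ± 0.30 and 1.06 ± 0.26. CAV1, the scaffold of cholesterol-rich caveolae, fell by 2.21 in OIS. NR1H3, which encodes liver X receptor alpha, fell by 2.22 in OIS and by 0.83 after bleomycin, and CYP27A1, which makes the oxysterol 27-hydroxycholesterol, fell in both, by 1.20 after bleomycin. The difference between the models passed for 5 of the 20, where 8.14% of all genes passed as higher in OIS and 12.1% as lower. Among the 5 were CAV1 (-2.61), LRP8 (1.82) and NR1H3, whose fall was the larger in OIS.

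Of 31 further genes of fatty acid handling, of which 29 were tested in either model, 12 rose and 4 fell in OIS and 5 rose and 1 fell after bleomycin. The shares of all genes called higher and lower were 15.5% and 20.2% in OIS. After bleomycin they were 15.4% and 15.8%, and some of the counts lie near these shares. DGAT2, a triglyceride synthesis enzyme, rose by 4.75 ± 0.27 and 1.57 ± 0.42 (adjusted p = 5.26e-09 and 0.00638), CD36, a fatty acid transporter, by 2.10 ± 0.58 and 3.10 ± 0.54, and FADS3, a desaturase, by 1.42 ± 0.34 and 1.24 ± 0.20. In OIS LPIN3, a relative of LPIN1, fell by 2.94, and PPARG, the fat cell regulator, by 2.56. The models differed for 7 of 30, where 8.14% of all genes passed as higher in OIS and 12.1% as lower. Among the 7 were DGAT2 (3.25), PPARG (-2.84) and LPIN3 (-2.84). The next 3 genes were chosen after their values were seen: SCD5, the other stearoyl-CoA desaturase, fell in OIS by 1.99 where SCD rose, and CPT1A, which admits fatty acids to mitochondria for oxidation, fell by 0.79 and 0.53. MYLIP, a ubiquitin ligase for lipoprotein receptors and a liver X receptor target, fell by 1.02 and 0.72, whereas ABCG1 rose. None of the genes in these lists passed on COPB2 knockdown in the edgeR test without a block (lowest adjusted p = 0.23). Between 0 and 4 genes of a list had an unadjusted p under 0.05 in a comparison.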

How the data were processed

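The authors deposited a table of raw read counts for 28266 gene symbols and 42 libraries, without normalization. The submitters' processing notes name STAR (2.7.8a), DRAGEN, DESeq2 (1.32.0) and hg38, whereas the study's methods name other tools and an older build, so which of them made the table is not settled here. Libraries were poly(A)-selected, directional and read from a single end.

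Samples were grouped by GEO labels. Counts were tested with edgeR (4.0.16) in R (4.3.3): filterByExpr, TMM, and the robust quasi-likelihood test with Benjamini-Hochberg adjustment over all genes tested, at an adjusted p under 0.05. A single fit each was made for the ER:RAS (14297 genes) and IMR90 (14783 genes) libraries, and for all 42 (15299 genes) for the difference between models. All changes are log2 fold changes ± SE. CPM use TMM-scaled library sizes, with a prior count of 2 on the log2 scale. Scripts were tested on simulated data. Alternatives were DESeq2 (1.42.0) size factors and its Wald test, no filter on low counts, the compared libraries alone, a replicate block, a minimum log2 fold change of 1, and leaving out each library. The correction for GC content and length (loess of each library's log2 values, GRCh37 longest transcripts, available for 95.9% of tested genes) was added after the data were seen. Members, lists and tests were chosen with earlier results of these data known. Per-library values were given for regulators, exporters, members called between the models and the 4 members of each arm with the largest changes; others were chosen after their values were seen. From the other lists the 3 largest calls in each comparison were named, and LBR, TM7SF2 and ERG28 because they belong to synthesis.

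Replicate numbers paired libraries where the correlation of their deviations from the group means exceeded 0.1 for every pair. This held for knockdown in IMR90 cells (lowest 0.101) and for OIS with COPB2 shRNA 1 (0.463 to 0.788) and 2 (0.522 to 0.795), and not elsewhere.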

Additional observations from a re-analysis of the deposited data

Results flagged for a closer look

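In total 10 values in the IMR90 DMSO control shRNA group stood apart from the other 3 libraries by Dixon's criterion, of 84 group tests on the members' CPM (11.9%), where chance gives about 1 in 20. In replicate 1 these were the high values of SREBF1 (70.9 CPM), SREBF2 (291 CPM), SCAP (184 CPM), FDPS (113 CPM), FDFT1 (168 CPM), LSS (237 CPM), ACSS2 (76.6 CPM) and FADS2 (279 CPM), and the low value of ELOVL5 (60.0 CPM). SQLE stood apart in replicate 3 (43.3 CPM). The members are not independent tests, since 9 of the 10 values come from replicate 1, in which the deviation from the group mean had a Spearman correlation of 0.704 with GC content over all genes, and nothing is read from the share.

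In addition, 18 members differed between the models in the interaction test, SREBF2, FDPS, FDFT1 and SQLE named above among them, each with a higher log2 fold change in OIS than after bleomycin. In the sterol arm the difference of the log2 fold changes was 2.22 for FDPS, 2.11 for MSMO1, 2.06 for HMGCS1, 2.03 for FDFT1, 1.94 for EBP, 1.60 for MVD, 1.57 for MVK, 1.35 for ACAT2, 1.11 for NSDHL, 1.10 for SQLE, 1.09 for DHCR7 and 0.85 for HSD17B7. In the fatty acid arm it was 1.70 for FASN, 1.14 for SCD, 0.95 for LPIN1 and 0.92 for ACACB, and of the regulators 2.84 for INSIG1 and 1.00 for SREBF2.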

How the results depend on the processing

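The counts of members called on senescence with the control shRNA were 22 to 32 in OIS and 17 to 27 after bleomycin under the alternatives that kept all libraries, except a minimum log2 fold change of 1, which left 11 after bleomycin. Leaving out each library gave 21 to 26 in OIS, 16 to 22 after bleomycin, 23 to 29 and 24 to 28 in OIS with COPB2 shRNA 1 and 2, and 21 to 25 with either after bleomycin. Between the models it gave 12 to 17, and the composition correction gave 28 against 18. The share of all genes called changed with the setting too. In the main fits it was 35.7% in OIS, 31.2% after bleomycin and 20.3% between the models. With the composition correction it was 55.4%, 46.9% and 36.2% in the same order. For the fits that left out a library this share is not given, so their counts have no background beside them. No call reversed. Of the calls, 20 of 24 in OIS, 16 of 20 after bleomycin and 8 of 18 between the models held in every alternative other than that minimum, and 20, 10 and 8 with it as well. Those lost in OIS were IDI1, STARD4, FADS2 and LPIN1. The sterol minus fatty acid difference was 0.98 in OIS (1.26 with the median over genes, 0.83 to 1.17 leaving out libraries) and 0.50 after bleomycin (0.40 to 0.57). Neither value is given with the composition correction. The cause of these changes was not tested.

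On COPB2 knockdown, 0 members were called in the 8 comparisons together, 1 by DESeq2's Wald test, 1 with the composition correction (HMGCS1), 2 with a replicate block and 15 with block and correction together, all higher; leaving out each library gave 0. In the knockdown comparisons of ER:RAS cells, not every same-numbered pair of libraries deviated together (correlations of -0.123 to 0.846 and -0.205 to 0.861 in OIS). There the block called INSIG1 with shRNA 2 (0.74, adjusted p = 0.037), where 0.532% of all genes were called, and block and correction called 12 members with each shRNA in OIS, where 2.26% and 3.94% were. In DMSO cells with shRNA 2, block and correction called INSIG1 as well (0.68, adjusted p = 0.0446; 0.0653% of all genes). The block gave 29 members in OIS, 27 after bleomycin, 30 in OIS with either COPB2 shRNA, 27 and 28 after bleomycin with them, 24 between the models and 0 for differences of the knockdown. The shares of all genes called in these fits were 50.9%, 40.9%, 53.2% and 53.1%, 44.9% and 50.5%, and 30.8% in the same order, against 35.7%, 31.2%, 36.9% and 36.9%, 35.2% and 40%, and 20.3% without the block. The block left the sterol minus fatty acid differences at 0.98 and 0.50. The lowest counts of the members called were those of ABCG1, with 12, 11, 7 and 14 in the IMR90 DMSO control libraries.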
